A study of Rattus norvegicus with 6 samples.

Results

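Endothelial cells line every blood vessel, and 9 rat genes that encode proteins of their junctions and surface (Pecam1, Cdh5, Emcn, Tie1, Vwf, Esam, Egfl7, Cldn5 and Robo4) were followed in injured and control tendon. The 9 genes were chosen as a list of endothelial markers. A gene was read from the probe set whose annotation names that gene alone and, where there were several, from the one whose mean over all 6 arrays was highest. By this rule 8 of the 9 genes were measured, of 22093 genes in all. Egfl7 has no value here, because its probe set also names Mir126b. Tendon of Sprague-Dawley rats was taken 1 week after tendon injury (3 arrays) or after control surgery (3 arrays), with rats assigned at random and 1 array per biological replicate. The sources used here do not say which tendon was injured and how, what the control surgery was, or the age and sex of the rats, and nothing says whether a sample held 1 rat or several. The tissue was bulk tendon, so fewer endothelial cells and less RNA per endothelial cell cannot be told apart.

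Endothelial cells hold together through adherens junctions, in which VE-cadherin (Cdh5) binds catenins, and through tight junctions, to which claudin-5 (Cldn5) and ESAM belong. Other surface proteins act in leukocyte traffic (Pecam1, endomucin) or in vessel stability (the receptors Tie1 and Robo4), while von Willebrand factor is stored in Weibel-Palade bodies and released to bind platelets. Tendon is sparsely supplied with vessels, most of them in the surrounding sheaths, and vessels grow into it during healing.

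One injured array differed from the other injured arrays. Across genes, the correlation with the control arrays was 0.951 to 0.966 for injured replicate 1 but 0.687 to 0.833 for injured replicates 2 and 3, which correlated with each other at 0.965. These values only describe the arrays, as genes are no replicates of one another. On injured replicates 2 and 3 the signal of 1276 olfactory and vomeronasal receptor genes, taken as little expressed in tendon, was raised. Their median log2 signal was 5.72, 7.84 and 7.78 on injured replicates 1, 2 and 3, against 5.42, 5.77 and 6.04 on control replicates 1, 2 and 3. The median of all probe sets was 5.79, 6.68 and 6.59 on the injured arrays, against 5.70, 5.79 and 5.99 on the control arrays. On injured replicates 2 and 3 the receptor median thus lay above the median of all probe sets and was no floor of the signal. The brightest tenocyte markers were present in control tendon: Thbs4, the gene of a thrombospondin of tendon matrix, read 13.45, 8.80 and 12.96 on the injured arrays, against 15.11, 16.02 and 17.79 on the control arrays, and Kera, the keratocan gene, read 9.37, 8.90 and 9.79, against 15.46, 16.92 and 19.17. Scx, a dim gene of the same list named after its values were seen, read 5.70, 5.67 and 5.75 on control replicates 1, 2 and 3, near their receptor medians. Tnmd, the gene of tenomodulin, named after its values were seen, read 7.23, 4.93 and 5.62 on the injured arrays, against 11.13 to 14.79 on the control arrays, and it was below the receptor median on injured replicates 2 and 3. The 10 markers of skeletal muscle averaged a log2 signal of 17.71, 11.09 and 11.25 on injured replicates 1, 2 and 3, against 17.24 to 18.32 on the control arrays, so muscle markers were near the control level on injured replicate 1 and lower on the others, although Acta1, the skeletal actin gene, was at the ceiling on injured replicate 3 as well. Myh4, a fast myosin gene, read 15.78 and 13.32 on injured replicates 2 and 3 and was at the ceiling on the other 4 arrays. Each result below is therefore given array by array.

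None of the 8 endothelial genes passed the test of injured against control tendon, which was limma's test with Benjamini-Hochberg adjustment over all genes and a threshold of 0.05. Over all 22093 genes 0% passed as well (0 genes), with 2572 genes at an unadjusted p under 0.05. Emcn was the 1 endothelial gene at an unadjusted p under 0.05 in the lower direction, where 7.25% of all genes stood. The difference, injured minus control, was below 0 for 7 of 8 endothelial genes, against 38.2% of all genes, and above 0 for 1 (Robo4), against 61.8% of all genes. After quantile normalization it was below 0 for 8 of 8, against 71.3% of all genes, and after centring of each array on its median for 8 of 8, against 75.4% of all genes. The median difference over the 8 genes was -0.64 on the log2 scale, against 0.15 over all genes tested and -0.26 when dim genes were left out. This median joins arrays that went opposite ways. The median of the 8 genes was 0.45, -1.14 and -1.20 from the control mean on injured replicates 1, 2 and 3, while the control arrays themselves lay at -0.07, 0.53 and -0.27. Of the 8 genes, 4 (Pecam1, Esam, Cldn5 and Robo4) read above all control arrays on injured replicate 1, where 21.0% of all genes did so, and 1 (Emcn) read below them, where 24.3% of all genes did. On injured replicate 2, 6 of the 8 (Pecam1, Cdh5, Emcn, Tie1, Esam and Cldn5) read below all control arrays, against 32.6% of all genes, and 1 (Robo4) read above them, against 55.4% of all genes. The same 6 genes read below all control arrays on injured replicate 3, against 33.3% of all genes, and 0 read above them, against 53.2% of all genes. Of the 8 genes, 3 (Pecam1, Esam and Cldn5) were above all control arrays on injured replicate 1 and below them on both other injured arrays, a pattern shown by 9.47% of all genes. The plot of signal by gene and array shows this split.

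**Figure D1:**
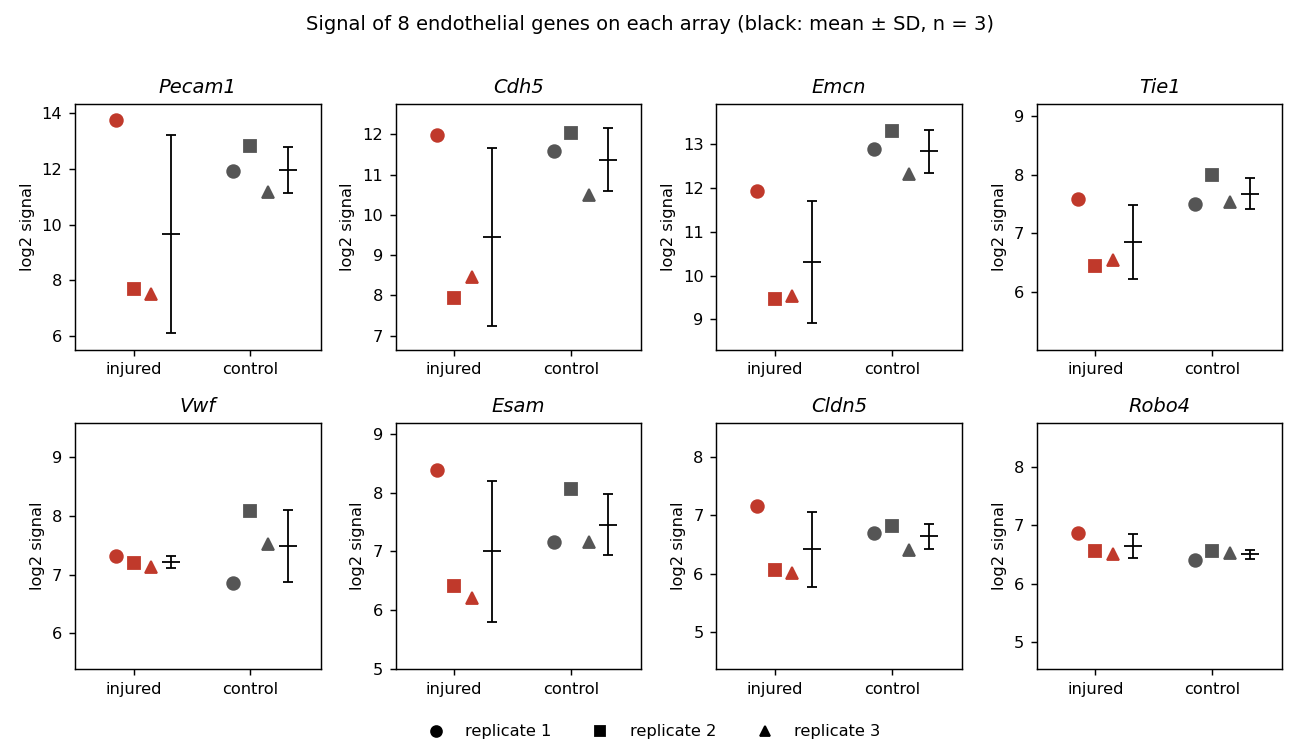
Log2 signal (vertical axes, whose ranges differ between panels) of the 8 measured endothelial genes on the 3 injured (red) and 3 control (grey) arrays, with marker shape for the replicate number and the group mean ± SD in black. Emcn is the gene whose injured arrays all lie below its control arrays, while Pecam1 reads 13.74 on injured replicate 1 and 7.71 and 7.52 on the other injured arrays.

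Among the junction genes, Pecam1 encodes CD31, a homophilic adhesion protein at the contacts between endothelial cells that is also carried by platelets and leukocytes. It read 13.74, 7.71 and 7.52 on injured replicates 1, 2 and 3, against 11.92, 12.83 and 11.17 on control replicates 1, 2 and 3. Injured replicate 1 was the highest of all 6 arrays and the other injured arrays were the lowest, so the groups overlapped. The means were 9.66 ± 3.54 in injured and 11.97 ± 0.83 in control tendon (SD, n = 3 each), and the difference of -2.32 (SE 1.76) was not called, at a limma adjusted p of 0.40. Against the control mean, injured replicate 1 was 1.77 higher on the log2 scale, or 3.40-fold, and injured replicates 2 and 3 stood at -4.26 and -4.45. Among the 8 genes its SD between injured arrays was the widest.

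Cdh5 encodes VE-cadherin, the adhesion molecule of the endothelial adherens junction. Its log2 signal was 11.97, 7.93 and 8.45 on the injured arrays, against 11.58, 12.03 and 10.50 on the control arrays. Injured replicate 1 lay within the control range and the other injured arrays lay below it. The difference was -1.92 (SE 1.14, limma adjusted p = 0.332). Injured replicates 2 and 3 were at -3.44 and -2.92 from the control mean.

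Esam, the gene of a junction protein of the immunoglobulin family found on endothelium and platelets, read 8.39, 6.41 and 6.20 on the injured arrays, against 7.17, 8.06 and 7.16 on the control arrays. As for Pecam1, injured replicate 1 was the highest array and injured replicates 2 and 3 the lowest. The difference of -0.46 (SE 0.65) had a limma adjusted p of 0.629. Cldn5 encodes claudin-5, a sealing protein of endothelial tight junctions. It read 7.16, 6.07 and 6.02 on the injured arrays, against 6.70, 6.81 and 6.41 on the control arrays, again with injured replicate 1 on top. Its difference was -0.22 (SE 0.35, limma adjusted p = 0.668), and its shifts from the control mean were 0.52, -0.57 and -0.62 on injured replicates 1, 2 and 3.

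Emcn was the gene that separated the groups. It encodes endomucin, a sialomucin on the surface of venous and capillary endothelium that limits leukocyte adhesion. Its log2 signal was 11.93, 9.47 and 9.53 on the injured arrays, against 12.89, 13.30 and 12.32 on the control arrays. All 3 injured arrays were below all 3 control arrays, which held for 1 of 8 endothelial genes and for 8.00% of all genes. None of the 8 (0 genes) had all injured arrays above all control arrays, as 7.09% of all genes did. The means were 10.31 ± 1.40 in injured and 12.84 ± 0.49 in control tendon (SD, n = 3 each). The difference was -2.53 (SE 0.73), a 5.76-fold lower signal, and its limma adjusted p of 0.322 did not pass. On injured replicate 1 Emcn was at -0.91 from the control mean, on the array where Pecam1 was at 1.77.

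Tie1 and Robo4 encode receptors. Tie1 is the partner of the angiopoietin receptor Tie2 (Tek). It read 7.59, 6.45 and 6.55 on the injured arrays, against 7.51, 8.00 and 7.54 on the control arrays. Injured replicate 1 lay inside the control range, and the other injured arrays were at -1.23 and -1.13 from the control mean. The difference was -0.82 (SE 0.36, limma adjusted p = 0.322). Robo4, an endothelial member of the roundabout family that steadies the vessel wall, read 6.87, 6.56 and 6.50 on the injured arrays, against 6.41, 6.55 and 6.53 on the control arrays. Its values on injured replicates 2 and 3 were 0.06 and 0.00 from the control mean, and its difference of 0.15 (SE 0.16, limma adjusted p = 0.547) became -0.36 after quantile normalization and -0.38 after centring of each array on its median. Robo4 has 3 probe sets. The 2 that were not used read 6.43, 6.23 and 6.23 on the injured arrays against 6.08, 6.25 and 6.18 on the control arrays, and 5.64, 5.27 and 5.41 against 5.34, 5.34 and 5.35. On all 3 probe sets injured replicate 1 was the highest array.

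Vwf encodes von Willebrand factor, the secreted protein that tethers platelets. It read 7.32, 7.19 and 7.13 on the injured arrays, against 6.86, 8.09 and 7.53 on the control arrays. All 3 injured values lay within the control range with the deposited values. The difference was -0.28 (SE 0.33, limma adjusted p = 0.564), and the SD over 3 arrays was 0.10 in injured and 0.62 in control tendon. Without control replicate 2 the difference was 0.02. After quantile normalization injured replicates 2 and 3 read 6.69 and 6.70, below the control range of 7.11 to 8.10. After centring of each array on its median they read 6.60 and 6.63, below the control range of 7.25 to 8.39. The Vwf difference was -0.64 with the first scaling and -0.81 with the second.

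On injured replicates 2 and 3, where the receptor genes were raised, 6 of the 8 endothelial genes read below the receptor median of the same array. On injured replicate 1 and on each control array 0 of 8 did. By the ranks of Pecam1 and Cdh5, which lie on either side of it, 79.1% to 83.1% of all genes were below it on injured replicate 2. On injured replicate 3 the share was 74.3% to 88.6%. The count of 6 of 8 is near these shares and does not set the endothelial genes apart. Relative to the receptor median, Pecam1 stood at 8.02, -0.13 and -0.26 on the injured arrays, against 5.13 to 7.06 on the control arrays. Cdh5 stood 6.25, 0.09 and 0.67 above it on the injured arrays, against 4.46 to 6.26 on the control arrays. Emcn stood 6.21, 1.63 and 1.75 above it on the injured arrays, against 6.28 to 7.53 on the control arrays. For Tie1, Vwf, Esam, Cldn5 and Robo4 the control arrays were at most 2.32 above the receptor median. Robo4 was at -1.28 from the receptor median on injured replicates 2 and 3, against 0.49 to 0.99 above it on the control arrays. The part of the raised receptor signal in the differences was not tested.

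**Figure D2:**
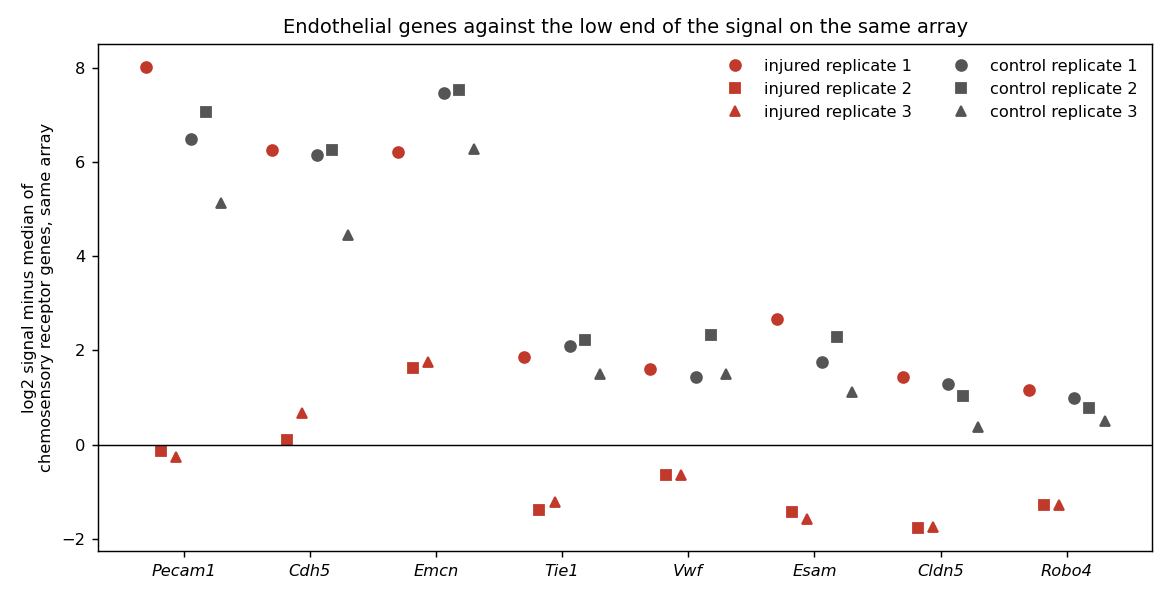
Log2 signal of each endothelial gene minus the median of 1276 olfactory and vomeronasal receptor genes on the same array (vertical axis), for the 3 injured (red) and 3 control (grey) arrays, with marker shape for the replicate number. On injured replicates 2 and 3 only Cdh5 and Emcn lie above the line at 0, while all 8 genes do on the other 4 arrays. The title calls the receptor median the low end, but on injured replicates 2 and 3 it lay above the median of all probe sets.

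Ranks within an array do not depend on its scale, but a gene also falls in rank where other genes rise. On injured replicates 2 and 3, 55.4% and 53.2% of all genes read above all control arrays. The part of this rise in the ranks below was not tested. A percentile is given here as the rank of a gene among the 22093 genes of an array and is compared between arrays for the same probe set only. Pecam1 was at percentile 98.5, 79.1 and 74.3 on the injured arrays, against 96.0 to 97.7 on the control arrays. Emcn was at 96.5, 95.2 and 95.0, against 97.7 to 98.2, so it kept a high rank on every injured array despite the lower signal. Esam was at 80.3, 36.3 and 31.4, against 65.8 to 76.4. Cldn5 was at 66.3, 24.3 and 25.3, against 50.2 to 59.9. Robo4 was at 61.8, 42.0 and 42.1 on the injured arrays, against 53.1 to 55.1 on the control arrays, so by rank it too was higher on injured replicate 1 and lower on the other injured arrays. Its deposited signal on injured replicates 2 and 3 was 0.06 and 0.00 from the control mean. Vwf was at 68.3, 64.5 and 63.5, against 61.9 to 76.8, within the control range on every injured array.

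The result rests on which injured arrays are counted. Without injured replicate 1, the same 6 genes that lay below all control arrays on the other injured arrays passed the test, all lower, and 21.6% of all genes passed in that direction (60.7% in either direction). The differences were then -4.36 for Pecam1 (limma adjusted p = 0.00304), -3.18 for Cdh5 (limma adjusted p = 0.00559) and -3.34 for Emcn (limma adjusted p = 0.00223). Over all alternatives the adjusted p ran from 0.00304 to 0.804 for Pecam1, from 0.00559 to 0.999 for Cdh5 and from 0.00223 to 0.877 for Emcn. With injured replicate 1 alone against the control arrays, 0 of 8 endothelial genes and 0.0407% of all genes passed. The differences were then 1.77 for Pecam1, 0.60 for Cdh5, 0.93 for Esam and 0.52 for Cldn5, opposite in sign to those over all arrays, and -0.91 for Emcn and -0.09 for Tie1. The plot of differences by setting shows these values together.

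**Figure D3:**
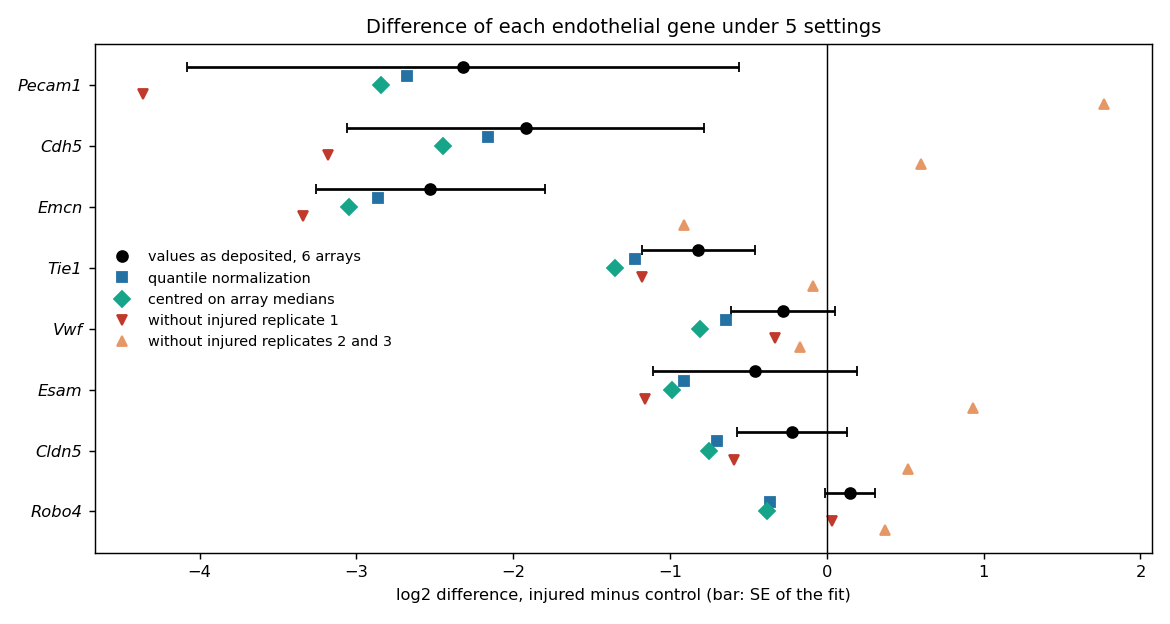
Log2 difference, injured minus control (horizontal axis), of each endothelial gene with the values as deposited on all 6 arrays (black, with the SE of the fit) and under 4 alternatives. Pecam1 runs from -4.36 without injured replicate 1 to 1.77 without injured replicates 2 and 3, while Emcn lies below 0 at each of the 5 settings drawn.

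In the lists of related genes, 0 genes passed the test. Direction counts below are for the deposited values, with which 38.2% of all genes had a difference below 0 and 61.8% above, and after either rescaling all genes of the endothelial surface, junction partner, signalling partner and transcription factor lists were below 0, where 71.3% and 75.4% of all genes were. Among 20 other endothelial surface genes, 15 differences were below 0 and 5 above, with medians of 0.09, -0.63 and -0.81 from the control mean on injured replicates 1, 2 and 3. In 3 of the 20 all injured arrays were below all control arrays, against 8.00% of all genes. The brightest genes of this list were Cd34 and Myct1. Cd34, which encodes a sialomucin of endothelium and of stromal progenitors, read 8.82, 7.34 and 7.55 on the injured arrays, against 10.37, 11.65 and 10.85 on the control arrays. As for Emcn, all injured arrays were below all control arrays, with a difference of -3.05 (SE 0.51, limma adjusted p = 0.322). Myct1, an endothelial membrane protein gene, differed by -0.91 (SE 0.63). The other genes of this list whose injured arrays all lay below the control arrays were Sele and Vcam1, the genes of adhesion molecules for leukocytes on activated endothelium, named after their values were seen. Sele differed by -1.29 (SE 0.40) and Vcam1 by -1.33 (SE 0.45). Vcam1 read 6.61, 6.85 and 6.89 on the injured arrays, against 7.69, 9.12 and 7.54 on the control arrays. On injured replicates 2 and 3 Cd34, Sele and Vcam1 all read below the receptor median.

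Of 16 binding partners of the junctions, 12 differences were below 0 and 4 above, and the list medians were 0.15, -1.03 and -1.29 on the injured arrays. On injured replicate 2, 11 of the 16 read below all control arrays, against 32.6% of all genes, and 4 above them, against 55.4%. The counts on injured replicate 3 were 11 and 4 as well, against 33.3% and 53.2% of all genes. Nectin2, Ocln, Cgn and Marveld2, named after their values were seen, were the 4 above all control arrays on both. All 4 read below the receptor median on these 2 arrays. Ctnnb1, the gene of beta-catenin, which links cadherins to the cytoskeleton, read 12.46, 8.49 and 8.26, against 12.17, 12.27 and 11.54 on the control arrays. Tjp1, which encodes the tight junction plaque protein ZO-1, read 11.23, 8.05 and 8.73, against 10.98, 11.54 and 10.72. Neither gene is particular to endothelium. Both were inside or above the control range on injured replicate 1 and below it on the other injured arrays.

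Of the ligands, co-receptors and signalling partners, 12 of 14 differences were below 0, with list medians of 0.31, -0.57 and -0.37. Ptpn11, a phosphatase gene whose product binds the tail of Pecam1, read 11.54, 7.38 and 8.34 on the injured arrays, against 11.24, 10.48 and 9.92 on the control arrays. Kdr, the gene of the main VEGF receptor, read 12.05, 7.56 and 7.57, against 9.61, 11.22 and 9.78. Both repeated the order of Pecam1, with injured replicate 1 above all control arrays and the other injured arrays below them. Tek, the Tie1 partner, and Angpt1, its activating ligand, were named after their values were seen. Tek read 11.20, 7.08 and 7.24, against 10.73, 11.54 and 9.69. Angpt1 read 8.09, 7.46 and 7.72 on the injured arrays, against 10.48, 9.22 and 8.46, so it separated the groups (difference -1.63, SE 0.53, limma adjusted p = 0.322). Notch4, also named after its values were seen, had all injured arrays above all control arrays (difference 0.36, SE 0.14). On injured replicates 2 and 3 both Angpt1 and Notch4 were below the receptor median.

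Of 12 transcription factor genes of endothelium, 7 differences were below 0 and 5 above, with medians of 0.17, -0.49 and -0.50 on the injured arrays. Epas1, the gene of the hypoxia-inducible factor HIF-2 alpha, read 11.36, 6.87 and 6.72 on the injured arrays, against 9.16, 10.63 and 9.58 on the control arrays. Fli1, an ETS factor gene, differed by -0.57 (SE 0.30). Erg, an ETS factor that binds endothelial promoters and was named after its values were seen, read 8.31, 6.39 and 6.14, against 7.86, 8.53 and 7.88. The partners of Vwf in storage and clotting had a median near 0 on each injured array (-0.03, 0.02 and -0.04), with 4 of 8 differences below 0, but 7 of 8 after quantile normalization and 8 of 8 after centring. Cd63, a membrane protein of Weibel-Palade bodies and other lysosome-like granules, differed by -1.23 (SE 0.59). Angpt2, a ligand stored with Vwf, differed by -1.03 (SE 0.57).

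Markers of other cells differed between the arrays as well. All 12 pericyte and smooth muscle genes had differences below 0, with medians of 0.23, -2.18 and -1.68 on the injured arrays and a mean log2 signal of 7.32 to 10.40 on the injured arrays, against 9.94 to 10.80 on the control arrays. Leukocytes carry Pecam1 too, and their marker genes had 10 of 13 differences above 0 with the deposited values, against 61.8% of all genes, with a list median of 0.40, but of -0.04 after quantile normalization and -0.13 after centring. Their medians were -0.31, 0.76 and 0.69 on the injured arrays, and the mean signal was 6.39 to 8.39 on the injured arrays, against 6.49 to 7.17 on the control arrays. Cd53, a tetraspanin gene of leukocytes, read 8.01, 14.37 and 11.63, against 8.44, 10.79 and 10.09. Lyz2, a lysozyme gene, read 7.70, 9.03 and 8.82, against 8.22, 8.76 and 9.10, with overlapping groups. Csf1r, a receptor gene of macrophages named after its values were seen, had all injured arrays below all control arrays, with a difference of -1.30 (SE 0.40). It was the 1 gene of the list to do so, against 8.00% of all genes. S100a9 and S100a8, also named after their values were seen, were the 2 with all injured arrays above all control arrays, against 7.09% of all genes. S100a9 read 5.67, 10.45 and 8.15, against 5.09 to 5.47 on the control arrays. S100a8 read 5.55, 8.04 and 6.99, against 5.23 to 5.35. Csf1r was below the receptor median on injured replicates 2 and 3, and S100a8 on injured replicate 3. Platelet genes had 8 of 9 differences above 0, against 61.8% of all genes, with a list median of 0.52, but of 0.08 and -0.01 after quantile normalization and centring. Their medians were -0.04, 0.82 and 0.65 on the injured arrays, against 2.11 and 2.03 for the receptor genes on injured replicates 2 and 3, and their mean signal was 5.68 to 6.56 on the injured arrays, against 5.63 to 6.13 on the control arrays. Pf4, the platelet factor gene, was the 1 gene of that list below 0 and read 6.87, 7.24 and 7.29, against 7.24, 8.15 and 8.71. Itgb3, an integrin gene of platelets and other cells, read 6.66, 7.55 and 7.51, against 6.79, 6.96 and 7.12. Muscle markers had medians of 0.00, -6.82 and -6.86, so muscle signal was lower on the same injured arrays as the endothelial signal. Epidermal markers were above all control arrays on injured replicate 1 for 7 of 7 genes (21.0% of all genes did so), and for 6 of 7 on injured replicate 2 and 6 of 7 on injured replicate 3 (55.4% and 53.2% of all genes), with a mean signal of 6.39 to 9.12 on the injured arrays, against 5.77 to 6.08 on the control arrays. Krt1, a keratin gene of outer epidermis, read 14.04, 5.75 and 5.61, against 5.31, 4.97 and 5.29, and Krt10, the gene of its partner keratin, read 10.38, 6.57 and 6.53, against 5.74, 5.53 and 5.95. The reference genes had medians of -0.29, -2.63 and -2.41, against 0.45, -1.14 and -1.20 for the endothelial genes. Of the brightest reference genes, Gapdh reached the ceiling on each of the 6 arrays and B2m, the gene of the light chain of MHC class I, read 14.39, 12.15 and 11.75, against 14.62, 15.31 and 14.41. The part of these tissues in the endothelial differences was not tested.

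**Figure D4:**
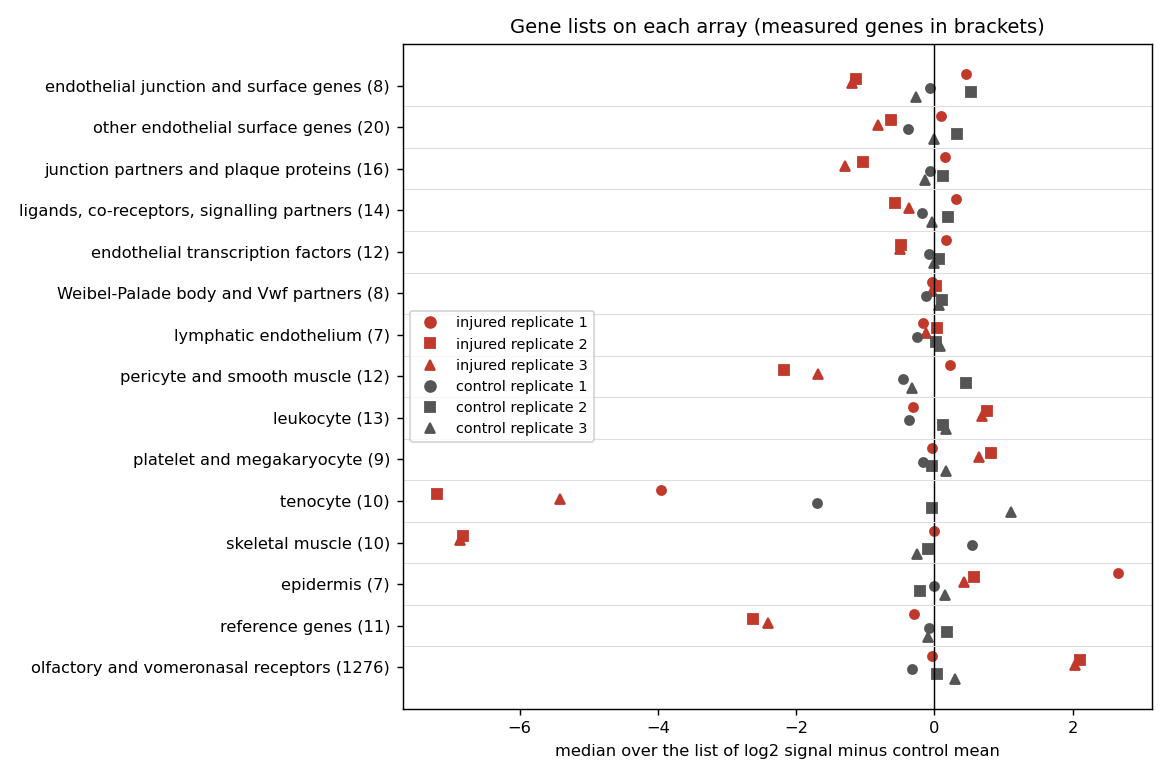
Median over each gene list of the log2 signal minus the control mean of the gene (horizontal axis), for the 3 injured (red) and 3 control (grey) arrays, with marker shape for the replicate number and the number of measured genes in brackets. The endothelial junction and surface, pericyte, muscle and reference lists lie left of 0 on injured replicates 2 and 3, while the receptor genes lie at 2.11 and 2.03.

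The 5 genes whose pattern over the 6 arrays was nearest to the median pattern of the endothelial genes were Pgm2, Gtf2f1, Lpcat3, Rbms1 and Zc3hav1. Nearness was the root mean square difference between values centred on the mean of each gene, and it ran from 0.068 for Pgm2 to 0.090 for Zc3hav1 on the log2 scale. Among the members, Tie1 was nearest to that median pattern, at 0.113, and Pecam1 farthest, at 1.80. Pgm2 read 9.24, 7.96 and 7.95 on the injured arrays, against 8.96, 9.43 and 8.78 on the control arrays.

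The promoters of Emcn, Tie1 and Robo4 are printed because these genes took 3 courses on the injured arrays with the deposited values: Emcn low on all, Tie1 low on injured replicates 2 and 3, and Robo4 above all control arrays on injured replicates 1 and 2 and inside their range on injured replicate 3. On injured replicate 2 Robo4 read 6.56, against 6.41 to 6.55 on the control arrays. After either rescaling it was below all control arrays on injured replicates 2 and 3. Cldn5 took a further course, above all control arrays on injured replicate 1 and below them on injured replicates 2 and 3, and its window is not printed. Each window runs from 250 bases before to 50 bases after the start site in the RefSeq table of build GRCr8, 5′ to 3′ on the strand of the gene. Capitals mark the ETS factor core AGGAAG or its reverse complement CTTCCT. ETS factors such as Erg and Fli1 are regulators of many endothelial genes. The Emcn window is chr2:228564289-228564588 on the plus strand, that of Tie1 is chr5:137304932-137305231 on the minus strand and that of Robo4 is chr8:45308489-45308788 on the plus strand.
Emcn: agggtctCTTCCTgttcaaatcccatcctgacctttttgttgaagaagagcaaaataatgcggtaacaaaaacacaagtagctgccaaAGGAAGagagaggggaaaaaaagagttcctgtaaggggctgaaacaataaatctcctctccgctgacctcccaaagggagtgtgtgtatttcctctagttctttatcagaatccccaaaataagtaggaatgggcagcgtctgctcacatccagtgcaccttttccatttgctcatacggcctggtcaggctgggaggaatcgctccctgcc
Tie1: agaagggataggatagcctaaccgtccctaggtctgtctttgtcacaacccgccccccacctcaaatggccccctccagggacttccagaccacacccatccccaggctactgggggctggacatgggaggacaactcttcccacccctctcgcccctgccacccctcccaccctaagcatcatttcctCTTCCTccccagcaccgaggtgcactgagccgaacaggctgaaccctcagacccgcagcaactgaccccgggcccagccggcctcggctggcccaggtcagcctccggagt
Robo4: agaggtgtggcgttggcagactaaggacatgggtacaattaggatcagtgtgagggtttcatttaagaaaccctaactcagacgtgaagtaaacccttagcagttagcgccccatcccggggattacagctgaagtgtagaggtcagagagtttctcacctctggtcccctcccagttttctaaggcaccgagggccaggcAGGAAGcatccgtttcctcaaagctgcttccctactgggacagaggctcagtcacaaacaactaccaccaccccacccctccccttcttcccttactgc
The core was found in 3 of the 4 measured members with a window in the table (Emcn, Tie1 and Robo4, but not Cldn5), and 34.5% of all 33469 promoter windows hold it. In the Emcn window it lay at -162 and, on the opposite strand, at -243 from the start site, in Tie1 at -61 on the opposite strand and in Robo4 at -49. A second ETS core, CCGGAAG, was in none of the 4 windows and in 8.75% of all windows. The KLF factor core CCACCC was in Tie1 and Robo4 and in 29.4% of all windows, and the SOX factor core ACAAAG was in Tie1 and in 18.8% of all windows. The GATA factor core AGATAA and the TATA box TATAAA were in none of the 4, against 11.6% and 14.2% of all windows. All were searched on both strands, a match being a description of letters only. Robo4 was matched by symbol, since its gene identifier on the array differs from that in the table. Both a gene that was below all control arrays on every injured array (Emcn) and a gene that was not (Robo4) hold the core AGGAAG.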

How the data were processed

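Tendon RNA of Sprague-Dawley rats was hybridised as biotin-labelled cRNA to 6 arrays, 3 injured and 3 control, per the labels' protocols. The titles name a rat transcriptome array and the protocol a mouse one, and the annotation names rat genes. The deposited values are log2 signals (a unit inferred from their range) for 68842 probe sets. Per the submitters' processing notes the authors made them in Affymetrix Expression Console. Their normalization and summarisation are not stated. They were used as deposited, with no filter, and no endothelial gene was within 0.02 of the ceiling of an array. Arrays have no read depth, and their number limits the precision.

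In the platform annotation 23446 probe sets had 1 symbol, 505 had several and 44891 had none. Entrez identifiers of 22077 were matched to RefSeq (GRCr8), and 1 symbol changed. Each of 22093 genes was read from its brightest probe set. Injured was compared with control in limma 3.58.1 under R 4.3.3 (lmFit, eBayes, two-sided, Benjamini-Hochberg over all genes). The fit was tried on simulated data in which both groups had the spread of the control arrays. That trial does not cover the wider spread between injured arrays of genes such as Pecam1. With 3 arrays against 3, exact permutation cannot give a p below 0.1 and was not used. Alternatives were quantile normalization, centring, a filter on dim genes, averaged probe sets per gene, a fit on every probe set, eBayes with trend and robust, a replicate block, leaving out single arrays, and injured replicate 1 alone.

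The members and lists were chosen with earlier results of these data known. The rule for named genes took all members, the 2 brightest genes of each list and any gene past the threshold (there was none), and for nearness of pattern 5 genes with no value at the ceiling. Genes outside the rule are marked as named after their values were seen. Of the lists, 3 genes were found through an older symbol. Nothing says that replicates came from separate animals beyond the word biological in the labels. The p-values weigh a group difference against the spread between these samples, pooled over both groups and moderated across genes.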

Additional observations from a re-analysis of the deposited data

How the results depend on the processing

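Leaving out each array in turn gave 0 to 13418 genes past the threshold, 0 to 6 of the 8 endothelial genes and a median difference of the 8 genes from -1.17 to -0.41. The counts above 0 arose without injured replicate 1, where Pecam1, Cdh5, Emcn, Tie1, Esam and Cldn5 passed. Vwf ran from -0.60 to 0.02 and turned above 0 without control replicate 2. With injured replicate 1 alone (its spread assumed to be that of the control arrays), 9 genes passed, the median of the endothelial genes was 0.45, and the differences of Pecam1, Cdh5, Esam and Cldn5 were 1.77, 0.60, 0.93 and 0.52. Robo4 turned to -0.36 with quantile normalization and to -0.38 with centring on array medians. These scalings moved the median of all genes from 0.15 to -0.28 and -0.38, and the endothelial median lay at -0.79 from the median of all genes under each of the 3. Centring shifts all genes of an array alike, so it cannot change that distance. With dim genes left out the endothelial median lay at -0.38 from the median of the genes tested, and with every probe set tested at -1.05. Genes at an unadjusted p under 0.05 numbered 970 higher and 1602 lower with the deposited values, 588 and 2489 after quantile normalization, and 488 and 2525 after centring. Emcn and Tie1 stayed below 0 under all 14 alternatives. The cause of these changes was not tested. Same-numbered arrays correlated in their deviations from the group means at 0.48, -0.04 and 0.59 across genes. Arrays of unlike number ranged from -0.67 to 0.65. Deviations within a group cancel out, so these values cannot decide whether samples were paired. The labels name no pairs, so the numbers were not taken to pair the samples. With the replicate block 0 genes and 0 endothelial genes passed, the endothelial median was -0.64, and 4565 genes had an unadjusted p under 0.05, against 2572 without it.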

Other observations

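Vessel-associated genes outside the blood endothelium also differed between arrays. Rgs5, a regulator of G protein signalling that marks pericytes, read 13.40, 6.67 and 8.49 on injured replicates 1, 2 and 3, against 16.53, 16.53 and 15.09 on the control arrays. All injured arrays were lower, and the difference of -6.53 (SE 1.74) had a limma adjusted p of 0.322. Des, the desmin gene of muscle cells and pericytes, read 17.80, 10.59 and 15.41, against 18.74, 16.48 and 16.08. Myh11 and Acta2, contractile genes of vascular smooth muscle named with their values known, had differences of -1.64 (SE 1.41) and -3.47 (SE 1.88), and on injured replicate 1 they read 11.87 and 14.92, against 9.64 to 11.35 and 12.97 to 15.78 on the control arrays.

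Among 7 genes of lymphatic endothelium, 4 differences were below 0 and 3 above with the deposited values, while 6 of 7 were below 0 after quantile normalization and 7 of 7 after centring. Mmrn1, the gene of multimerin 1, found in lymphatic endothelium and platelets, read 12.35, 7.91 and 6.67 on the injured arrays, against 11.73, 12.56 and 13.35 on the control arrays. Pdpn, which encodes podoplanin and is also expressed by fibroblasts, read 8.14, 10.80 and 9.04, against 8.65, 9.58 and 9.24. Ccl21, a chemokine gene of lymphatic vessels named after its values were seen, read 7.69, 7.17 and 6.44, against 9.12, 9.83 and 9.19, with all injured arrays below all control arrays and a difference of -2.28 (SE 0.38, limma adjusted p = 0.322). On injured replicates 2 and 3 Ccl21 was below the receptor median. Prox1, the transcription factor that sets lymphatic identity, also named with its values known, read 6.91, 7.28 and 7.08, against 7.06, 6.81 and 6.94, with overlapping groups.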
